A study of Mus musculus with 24 samples.

Results

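This comparison asks whether LLC tumours changed transcript levels differently in the cerebellum and in the neocortex of mice. It used 16 of the 24 libraries of the series, 4 in each of 4 groups: LLC neocortex, control neocortex, LLC cerebellum and control cerebellum. For each gene the tumour effect was the mean of the LLC libraries minus the mean of the controls in 1 region, and the quantity tested was the effect in cerebellum minus the effect in neocortex. A positive difference therefore means a more upward effect in cerebellum. Genes entered the test when their mean reached 1 TPM (a length-corrected share of the transcripts of a library) in the 8 libraries of each region, which held for 13783 of 47643 symbols.

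All mice were C57BL/6J males aged 4 months. LLC mice had received an injection of LLC cells and were sampled at 3 weeks, and controls had received a mock injection. Lewis lung carcinoma is the usual meaning of LLC, although no label expands the letters and the title of the series names melanoma. The series concerns cachexia, the wasting that accompanies a growing tumour, and the libraries were made from whole tissue with a stranded messenger RNA kit. In each region the titles number the LLC libraries 1 to 4 and the controls 14 to 17.

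A tumour growing outside the brain can reach it through blood cells, hormones and cytokines, which are sensed first by the endothelium and by astrocytes. The cerebellum consists mainly of granule neurons, with Purkinje cells and their Bergmann glia, whereas the neocortex is built from layers of excitatory neurons with protoplasmic astrocytes. Vimentin is a filament protein of Bergmann glia, of reactive astrocytes and of vessels, and Hes5 is a transcriptional repressor switched on by Notch receptors in neural progenitors and astrocytes.

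Markers of granule neurons and of cortical neurons followed the region labels. Gabra6, whose GABA receptor subunit marks granule neurons, measured 455 to 986 TPM in cerebellum and no more than 0.311 TPM in neocortex, and Tbr1, a transcription factor of deep-layer cortical neurons, measured 64.4 to 75.3 TPM in neocortex and at most 0.537 TPM in cerebellum. Drd2, a dopamine receptor gene typical of striatum, also measured 39.2 to 46.4 TPM in control and 35.8 to 48.9 TPM in LLC neocortex, against 1.82 to 3.93 TPM in hippocampus and 0.799 to 4.05 TPM in cerebellum. Of 8 tested striatal genes 0 had a called difference (median 0.13), and the part of striatal tissue in the results was not tested. Cerebellar LLC replicate 1 stood apart: its mean over 14 cerebellar neuron genes lay 0.87 below the controls on the log2 scale (-0.87, against -0.05 to -0.09 in the other 3 LLC cerebella), and its mean over 6 brainstem and deep nuclei genes lay 1.37 above them (against -0.45 to -0.18). Hoxb5, a hindbrain and spinal cord gene, measured 18.3 TPM there and 0.0436 to 1.64 TPM in the other 7 cerebellar libraries. The LLC libraries numbered 4 had less haemoglobin RNA than the other LLC libraries, 3545 TPM against 11688 to 15090 TPM in neocortex and 4228 TPM against 14341 to 15477 TPM in cerebellum. The median within-group SD over genes was 0.165 on the log2 scale in LLC cerebellum, against 0.066 to 0.0908 in the other 3 groups. The count of called differences and part of the other results are therefore also given without cerebellar LLC replicate 1.

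With the regions treated as unpaired, 20 of the 13783 genes had a tumour effect that differed between them (0.145% of those tested, limma with Benjamini-Hochberg adjustment at 0.05). Of these 20 genes, 6 had a positive difference (0.0435%) and 14 a negative one (0.102%). The positive group held Gda, Ier5, Klf10, Tnnc1 and Hes5, and the negative group held Vim, Etnppl, Lacc1, Cpeb2, Plcxd3, Lcor, Fzd3, Slc7a11, Erbb4, Asf1a, Wnk3 and Bmpr2. Nebl and the predicted genes Gm12655 and Gm13307 complete the list; they fall outside the naming rule and were named after their values were seen. An unadjusted p under 0.05 was reached by 1628 genes. With the number in the title as a replicate block, which pairs the regions of what may be the same animal, 1 gene was called, Gda. That gene passed the level filter in cerebellum only through its LLC libraries, so its call is a description. With the same number as a random block, chosen after seeing the data, 90 genes were called. Leaving out a single library gave 3 to 170 calls. Median-ratio scaling and quantile normalization each called 6 genes, 5 positive and 1 negative, where the analysis of the deposited scale gave 6 and 14. Without cerebellar LLC replicate 1 the test called 127 genes (0.921%), 24 positive (0.174%) and 103 negative (0.747%), and all 20 were among them.

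Tested within each region on the same genes, the tumour effect passed for 1290 genes in neocortex (9.36%; 838 up, 6.08%, and 452 down, 3.28%) and for 397 in cerebellum (2.88%; 187 up, 1.36%, and 210 down, 1.52%). Scaling changed the split: it was 664 up and 822 down in neocortex and 373 and 250 in cerebellum with median-ratio scaling, and 616 and 537, and 496 and 362, with quantile normalization. Leaving out 1 library gave 200 to 3781 calls in neocortex, the highest without LLC replicate 4, and 7 to 1510 in cerebellum, where the count was 1314 without LLC replicate 1 and 1510 without LLC replicate 4. Genes that rose in both regions numbered 128, or 15.3% of those that rose in neocortex and 68.4% of those that rose in cerebellum. Genes that fell in both numbered 31, or 6.86% and 14.8%. No gene of the 20 had passed in both regions. Of the 14 negative differences, 9 were genes that fell in cerebellum and had no call in neocortex, and 5 were genes that rose in neocortex and had no call in cerebellum. Of the 6 positive differences, 5 were genes that fell in neocortex, and 1, Gda, rose in cerebellum. Over all tested genes the 2 regional effects had a Pearson r of 0.656 and a Spearman rho of 0.557, a description across genes, which are not independent replicates. Because the samples are bulk tissue, fewer cells of a type and less RNA per cell cannot be told apart.

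**Figure D1:**
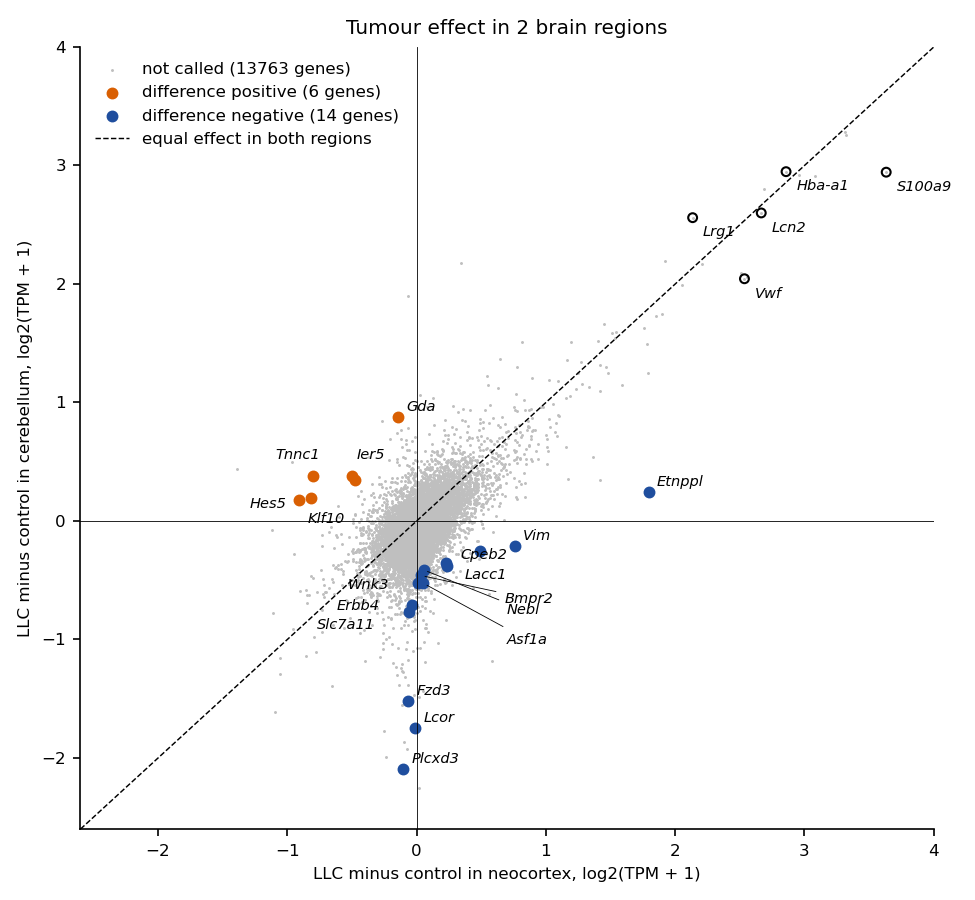
Each point is 1 of 13783 genes, with the LLC minus control effect in neocortex on the horizontal axis and in cerebellum on the vertical axis, both as differences of mean log2(TPM + 1), 4 libraries per group. The 6 genes with a called positive difference lie above the dashed line of equal effects and the 14 with a called negative difference below it, whereas the open circles of Hba-a1, Lcn2, Lrg1, Vwf and S100a9 mark large effects in both regions with no called difference.

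Of the 5 positive genes that fell in neocortex, 1 is the predicted gene Gm12655 and the others are Hes5, Klf10, Ier5 and Tnnc1, which span a Notch effector, 2 early-response genes and a calcium-binding protein. Hes5 (chr4:154960923-154962371, plus strand, GENCODE M21 on mm10) measured 27.4, 29.6, 24.8 and 25.8 TPM in control neocortex and 11.7, 11.6, 12.5 and 21.5 TPM in LLC neocortex. In cerebellum its values were 2.05, 2.66, 2.33 and 2.73 TPM in controls and 2.74, 2.67, 3.27 and 2.89 TPM in LLC mice. All LLC neocortices were below their controls, with replicate 4 nearest to them, and the cerebellar groups overlapped. The tumour effect was -0.91 ± 0.16 (SE, n = 4 per group) in neocortex and 0.18 ± 0.10 in cerebellum, a difference of 1.09 ± 0.20 (95% confidence interval 0.65 to 1.52; limma adjusted p = 0.0465). In hippocampus, a region outside the test, the LLC minus control value of Hes5 was -1.14, on the side of neocortex.

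Hes5 is activated through the DNA-binding protein CSL, so its promoter is shown. The RefSeq promoter on GRCm38.p6 (chr4:154960673-154960972, plus strand, 250 bases before to 50 after the start site) holds the CSL motif GTGGGAA once on each strand, beginning 226 and 83 bases before the start site, and capitals mark both matches.
Hes5: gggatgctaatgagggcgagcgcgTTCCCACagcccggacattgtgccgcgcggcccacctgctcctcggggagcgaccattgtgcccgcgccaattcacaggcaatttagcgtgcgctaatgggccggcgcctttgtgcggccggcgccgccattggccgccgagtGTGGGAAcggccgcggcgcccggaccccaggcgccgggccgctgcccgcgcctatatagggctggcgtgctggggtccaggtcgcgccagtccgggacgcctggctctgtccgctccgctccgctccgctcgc
The motif, searched on both strands, was found in 2097 of 32851 RefSeq promoters of the same length (6.38%). Of the 20 called genes 15 had a promoter in that table, and 4 of those held a match: Hes5, Bmpr2, Etnppl and Plcxd3. This counts genes with a match in any of their promoters, whereas the 6.38% counts single promoters. The share and the count therefore cannot be compared. A match describes these letters only, and binding was not measured.

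The other genes of the Notch list had no called difference. Of its 14 tested members, 1 had a called positive difference and 0 a called negative one. The median difference was -0.09, against -0.06 over all tested genes. Without cerebellar LLC replicate 1 these medians were -0.13 and -0.04. Among the receptors, Notch1 had a difference of -0.23, Notch2 of -0.25 and Notch3 of -0.41, none of them called. Among the targets, Hes1 had a difference of 0.26, Heyl of -0.37 and Nrarp, a feedback inhibitor of the pathway, of 0.66, again none called. Within neocortex 6 members of the list rose and 1, Hes5, fell, and within cerebellum 0 passed. Of all tested genes 9.36% passed in neocortex and 2.88% in cerebellum.

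Klf10, a zinc-finger transcription factor induced early by TGF-beta, lies at chr15:38291463-38300706 on the minus strand. It measured 30.7, 44.5, 39.4 and 34.6 TPM in control neocortex and 20.1, 20.4, 21.5 and 20.3 TPM in LLC neocortex. The cerebellar values were 8.37, 8.05, 8.04 and 8.25 TPM in controls and 7.65, 8.89, 10.6 and 11.3 TPM in LLC mice. The neocortical groups were fully separated, whereas in cerebellum LLC replicate 1 lay under the controls and the other 3 above them. Klf10 fell in neocortex (-0.81 ± 0.09) and its cerebellar effect was 0.19 ± 0.11, a difference of 1.01 ± 0.15 (95% confidence interval 0.69 to 1.33; limma adjusted p = 0.0151).

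Ier5, an immediate early gene that acts with heat shock factor, lies at chr1:155096361-155099636 on the minus strand. Neocortical values were 79.6, 93.4, 91.0 and 87.4 TPM in controls and 57.6, 57.5, 72.0 and 61.4 TPM in LLC mice. Cerebellar values were 24.2, 20.2, 19.4 and 20.5 TPM in controls and 24.5, 28.0, 30.8 and 27.8 TPM in LLC mice. In neocortex every LLC library was below every control, and in cerebellum every LLC library was above, replicate 1 only just. The effect was -0.50 ± 0.07 in neocortex (limma adjusted p = 0.00767) and 0.38 ± 0.09 in cerebellum, where it did not pass (limma adjusted p = 0.0554), and the difference was 0.88 ± 0.12 (95% confidence interval 0.62 to 1.14; limma adjusted p = 0.00959). The hippocampal value was 0.03. Ier5 was called in all 16 fits that left out a single library.

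The other immediate early genes, which neurons switch on within minutes of activity, had no called difference. Of 18 tested members of that list Ier5 alone was called, and 9 members were positive and 9 negative. The median difference was 0.04 (0.13 without cerebellar LLC replicate 1). Median effects over the list were -0.37 in neocortex and -0.11 in cerebellum. Means over the list were closer between regions: -0.62, -0.06, -0.57 and -0.42 in LLC neocortices 1 to 4 and -0.60, -0.07, -0.47 and -0.19 in the LLC cerebella. Controls ranged from -0.36 to 0.36 in neocortex and from -0.24 to 0.39 in cerebellum. Fos had effects of -1.06 in neocortex and -1.16 in cerebellum, whereas Arc, whose product acts at synapses, had -1.12 and -0.08; the difference of Arc, 1.04 ± 0.34, did not pass (limma adjusted p = 0.262).

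Tnnc1 encodes troponin C of slow and cardiac muscle, a calcium sensor that is also transcribed in brain, and lies at chr14:31208312-31211729 on the plus strand. It measured 10.6, 12.8, 11.2 and 14.7 TPM in control neocortex and 5.89, 5.57, 6.76 and 8.37 TPM in LLC neocortex. In cerebellum it measured 2.46, 2.79, 2.06 and 3.25 TPM in controls and 3.78, 3.27, 4.89 and 3.10 TPM in LLC mice. The neocortical groups did not overlap, and in cerebellum only LLC replicate 4 lay inside the control range. Its difference was 1.19 ± 0.20 (95% confidence interval 0.77 to 1.61; limma adjusted p = 0.0334), from a fall of -0.81 ± 0.12 in neocortex and a cerebellar effect of 0.38 ± 0.14.

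Gda was the gene with the smallest p of the test. It encodes guanine deaminase, which converts guanine to xanthine and is known in neurons as cypin, and lies at chr19:21391307-21473445 on the minus strand. In cerebellum it measured 0.621, 0.394, 0.557 and 0.606 TPM in controls and 2.04, 2.05, 1.66 and 1.62 TPM in LLC mice. In neocortex its level was far higher, with 169, 179, 169 and 169 TPM in controls and 153, 150, 150 and 168 TPM in LLC mice. The groups were separated in both regions, in opposite directions. Gda rose in cerebellum by 0.88 ± 0.11 on the log2(TPM + 1) scale (limma adjusted p = 0.0135), its neocortical effect of -0.14 ± 0.04 did not pass (limma adjusted p = 0.0629), and the difference was 1.02 ± 0.10 (95% confidence interval 0.82 to 1.22; limma adjusted p = 1.51e-04). The gene passed the level filter in cerebellum only through its LLC libraries, and with a pseudocount of 0.1 in place of 1 the difference was 1.74. It was called in all 16 fits that left out a library, and with the replicate block (limma adjusted p = 0.0297). All these fits, and the main one, kept the genes chosen by that filter over the 16 libraries. The p-values of Gda, that of the main test included, therefore depend on the same rise that let it enter. Its calls are a description and no independent support.

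With the title number as a replicate block the other positive genes lost their calls: limma adjusted p was 0.0512 for Klf10, Ier5 and Tnnc1 and 0.0665 for Hes5. Among the 16 fits that left out a library, Klf10 was called in 12, Tnnc1 in 7 and Hes5 in 5. With each library's trend with transcript length and GC content removed, Tnnc1 (difference 1.07, limma adjusted p = 0.0769) and Hes5 (0.97, limma adjusted p = 0.105) were not called. With a pseudocount of 0.1 Hes5 was not called either (limma adjusted p = 0.0549), while Klf10, Ier5 and Tnnc1 were.

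The 5 genes with the smallest p among those with a positive difference that did not pass were Lgi2, Mapk11, Tubb3, Gadd45b and Tcap, all at a limma adjusted p of 0.0656. Tubb3, the neuronal beta-tubulin, had a neocortical effect of -0.46 and a cerebellar effect of 0.21, a difference of 0.67 ± 0.14. Mapk11, a p38 kinase, had a difference of 0.58 ± 0.12, and Gadd45b, a stress-induced gene, one of 0.60 ± 0.13. Without cerebellar LLC replicate 1 all 5 passed, at limma adjusted p from 0.0253 for Tcap to 0.0400 for Gadd45b.

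**Figure D2:**
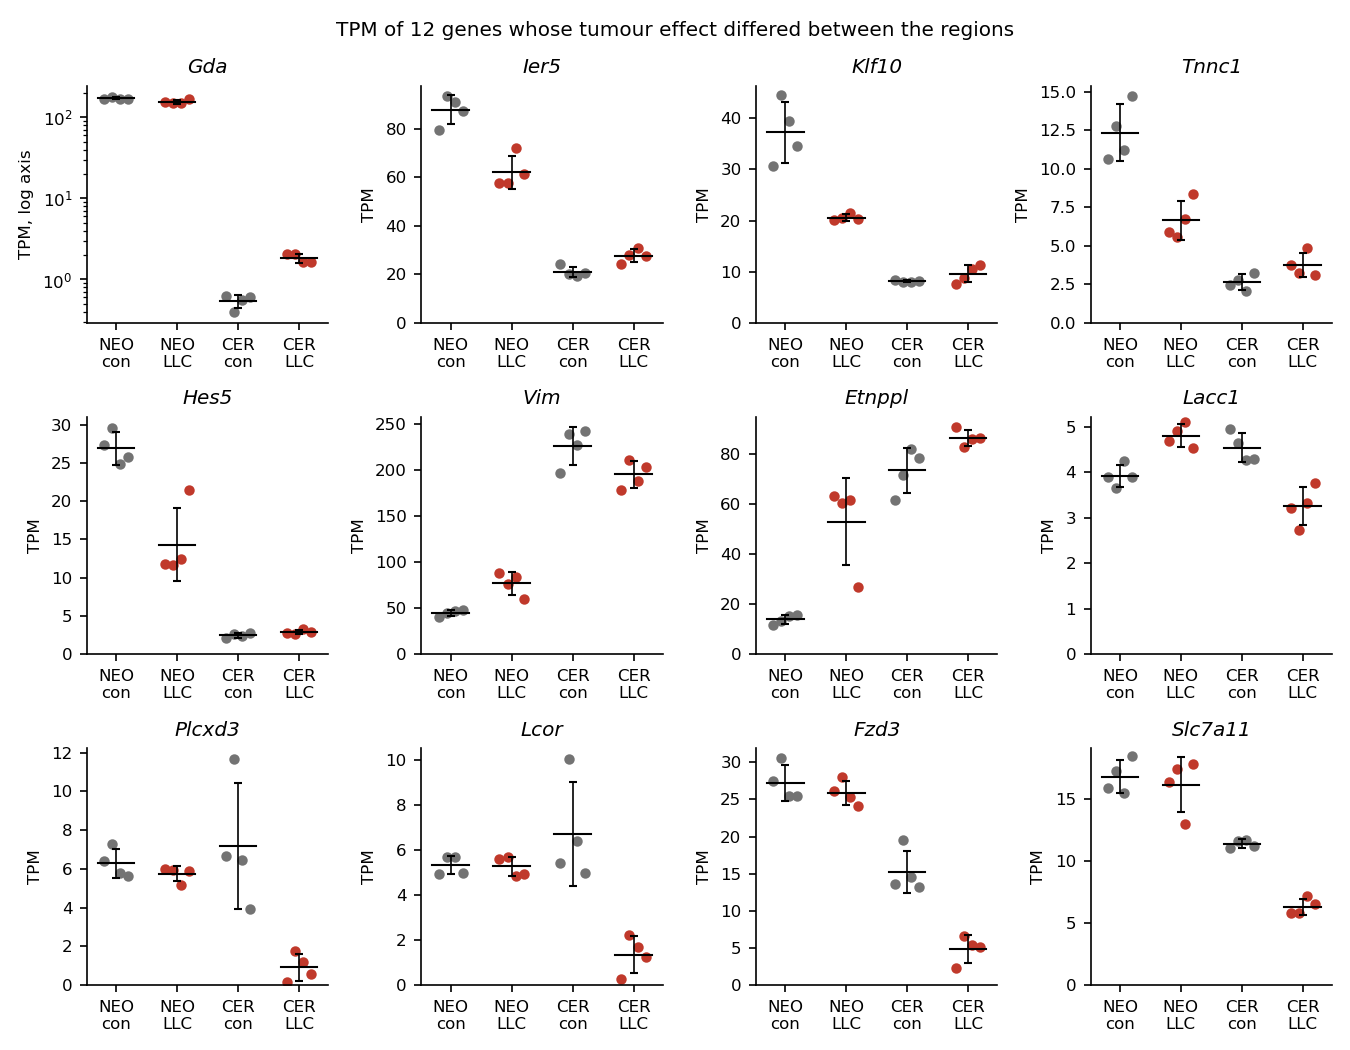
Each panel shows 1 gene, with TPM on the vertical axis (a log axis for Gda) and the 4 groups on the horizontal axis, grey for control and red for LLC. Points are libraries, horizontal lines are means and bars are SD (n = 4), and the panels of Hes5, Klf10, Ier5 and Tnnc1 show lower LLC values in neocortex, those of Vim and Etnppl higher LLC values in neocortex, and those of Plcxd3, Lcor, Fzd3 and Slc7a11 lower LLC values in cerebellum.

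A second set of genes rose in neocortex and had no call in cerebellum, led by Vim and Etnppl. Vim (chr2:13573927-13582826, plus strand) measured 39.8, 44.8, 46.5 and 47.8 TPM in control neocortex and 88.2, 76.4, 83.8 and 60.0 TPM in LLC neocortex. In cerebellum it measured 197, 240, 227 and 243 TPM in controls and 179, 211, 188 and 204 TPM in LLC mice. All LLC neocortices lay above their controls, replicate 4 least so, while the cerebellar groups overlapped. Vim rose by 0.76 ± 0.11 in neocortex and its cerebellar effect was -0.21 ± 0.08, a difference of -0.97 ± 0.14 (95% confidence interval -1.28 to -0.67; limma adjusted p = 0.0151). The hippocampal value was 0.80, close to that of neocortex.

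Etnppl, an astrocyte enzyme that breaks down phosphoethanolamine, lies at chr3:130617448-130637521 on the plus strand. Its values in neocortex were 11.6, 13.2, 15.2 and 15.4 TPM in controls and 63.3, 60.5, 61.5 and 26.8 TPM in LLC mice. In cerebellum they were 61.8, 71.6, 82.2 and 78.6 TPM in controls and 91.0, 83.0, 86.1 and 86.5 TPM in LLC mice. LLC libraries were higher in both regions without overlap, by a wide margin in neocortex replicates 1, 2 and 3 and by less in replicate 4 and in cerebellum. The effect was 1.79 ± 0.24 in neocortex, a 3.47-fold rise on that scale, and 0.24 ± 0.09 in cerebellum, where it did not pass (limma adjusted p = 0.134). The difference was -1.55 ± 0.28 (95% confidence interval -2.15 to -0.96; limma adjusted p = 0.0465), and the hippocampal value was 1.56.

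Other astrocyte genes had no called difference. Of 17 tested reactive astrocyte genes Vim alone had a called difference, and the list's median difference was 0.01 (-0.10 without cerebellar LLC replicate 1). In neocortex 9 of the 17 rose and 0 fell, and in cerebellum 3 rose and 0 fell. Of all tested genes 6.08% rose in neocortex and 1.36% in cerebellum. Gfap, the astrocyte filament protein, had effects of -0.24 in neocortex and -0.21 in cerebellum, and Serpina3n, a protease inhibitor of reactive astrocytes, had 0.41 and 0.53. Among 16 astrocyte identity genes 0 differences were called, and their median was -0.11.

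Lacc1 and Cpeb2 had smaller, opposed effects. Lacc1 (chr14:77024200-77036904, minus strand), a purine nucleoside enzyme of macrophages, measured 3.66 to 4.24 TPM in control and 4.53 to 5.10 TPM in LLC neocortex, against 4.28 to 4.95 TPM in control and 2.74 to 3.76 TPM in LLC cerebellum. Cpeb2 (chr5:43233170-43289724, plus strand), a translation regulator that binds polyadenylation elements, measured 34.1 to 36.0 TPM in control and 36.6 to 43.5 TPM in LLC neocortex, against 39.95 to 45.1 TPM in control and 29.5 to 36.7 TPM in LLC cerebellum. For both genes the LLC libraries were all above the controls in neocortex and all below them in cerebellum. Both rose in neocortex (0.24 for Lacc1 and 0.23 for Cpeb2), and the cerebellar effects of -0.38 and -0.36 did not pass (limma adjusted p = 0.0691 and 0.0561). The differences were -0.62 ± 0.11 for Lacc1 and -0.58 ± 0.10 for Cpeb2, each at a limma adjusted p of 0.0465.

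With the replicate block limma adjusted p was 0.0512 for Vim, Etnppl and Cpeb2 and 0.0968 for Lacc1. Vim was called in 14 of the 16 fits that left out a library, Lacc1 and Cpeb2 in 6 and Etnppl in 5. With the length and GC trend removed, Etnppl (difference -1.51, limma adjusted p = 0.0626) and Cpeb2 (-0.49, limma adjusted p = 0.0769) were not called. With a pseudocount of 0.1 Lacc1 was not called (limma adjusted p = 0.0511), while Vim, Etnppl and Cpeb2 were.

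The third set, 9 genes, fell in cerebellum while neocortical values overlapped. Plcxd3, which encodes a phospholipase C with an X domain only, lies at chr15:4375491-4575553 on the plus strand. It measured 6.66, 11.7, 6.47 and 3.95 TPM in control cerebellum and 0.159, 1.76, 1.18 and 0.547 TPM in LLC cerebellum. In neocortex it measured 6.43, 7.28, 5.79 and 5.64 TPM in controls and 6.01, 5.95, 5.18 and 5.88 TPM in LLC mice. The cerebellar groups were separated, with LLC replicate 1 lowest, and controls themselves spanned a wide range. Plcxd3 fell by 2.09 ± 0.32 in cerebellum, the neocortical effect was -0.11 ± 0.08, and the difference was -1.99 ± 0.35 (95% confidence interval -2.74 to -1.24; limma adjusted p = 0.0465).

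Lcor, a corepressor of nuclear receptors at chr19:41482637-41562261 on the plus strand, measured 5.41, 10.05, 6.39 and 4.98 TPM in control cerebellum and 0.254, 2.22, 1.71 and 1.23 TPM in LLC cerebellum. Its neocortical values were 4.95, 5.68, 5.67 and 4.996 TPM in controls and 5.59, 5.70, 4.85 and 4.94 TPM in LLC mice. As for Plcxd3, the cerebellar groups did not overlap and LLC replicate 1 was lowest. The difference was -1.74 ± 0.32 (95% confidence interval -2.42 to -1.05; limma adjusted p = 0.0465), with effects of -1.75 ± 0.29 in cerebellum and -0.01 ± 0.07 in neocortex.

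Fzd3, a Wnt receptor that steers growing axons, lies at chr14:65192449-65262463 on the minus strand. It measured 13.6, 19.5, 14.6 and 13.3 TPM in control cerebellum and 2.27, 6.62, 5.38 and 5.13 TPM in LLC cerebellum. In neocortex controls measured 27.5, 30.5, 25.4 and 25.5 TPM and LLC mice 26.1, 28.0, 25.4 and 24.1 TPM. Every LLC cerebellum was at or below 6.62 TPM and every control at or above 13.3 TPM, while the neocortical groups overlapped. Fzd3 fell by 1.52 ± 0.24 in cerebellum and had a difference of -1.46 ± 0.27 (95% confidence interval -2.02 to -0.89; limma adjusted p = 0.0465). Hippocampal values were -0.62 for Plcxd3, -0.74 for Lcor and -0.87 for Fzd3, between those of neocortex and cerebellum. All of them passed within hippocampus (limma adjusted p = 0.0218, 0.0208 and 0.0176). Hippocampal means were low, 0.973 TPM in controls and 0.279 TPM in LLC mice for Plcxd3, and 2.08 and 0.828 TPM for Lcor. At such levels log2(TPM + 1) understates a fall.

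Slc7a11 encodes the cystine and glutamate exchanger xCT, which supplies cysteine for glutathione and is a target of ATF4 and NRF2. It lies at chr3:49892526-50443614 on the minus strand. In cerebellum it measured 11.1, 11.7, 11.7 and 11.2 TPM in controls and 5.78, 5.78, 7.15 and 6.52 TPM in LLC mice. In neocortex it measured 15.9, 17.3, 15.5 and 18.5 TPM in controls and 16.4, 17.4, 12.98 and 17.8 TPM in LLC mice. The LLC cerebella were all low, replicate 1 no more so than replicate 2, and the neocortical groups overlapped. Slc7a11 fell by 0.77 ± 0.08 in cerebellum and its neocortical effect was -0.06 ± 0.09, a difference of -0.71 ± 0.13 (95% confidence interval -0.98 to -0.43; limma adjusted p = 0.0465).

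The other ATF4 and NRF2 targets had no called difference: Slc7a11 alone was called among 20 ATF4 genes, with a median of -0.08, and among 18 NRF2 genes, with a median of -0.03. Asns, the asparagine synthetase, had a difference of -0.13, Chac1, which degrades glutathione, of -0.12, and Slc3a2, the partner subunit of xCT, of -0.09.

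Erbb4, the neuregulin receptor, lies at chr1:68032186-69108059 on the minus strand and measured 12.5, 12.9, 10.4 and 10.2 TPM in control cerebellum and 5.91, 7.01, 6.81 and 6.74 TPM in LLC cerebellum. Its neocortical values were 31.9, 32.6, 30.5 and 31.9 TPM in controls and 30.9, 33.5, 28.2 and 31.2 TPM in LLC mice. The cerebellar groups did not overlap and the neocortical groups did. The difference was -0.67 ± 0.11 (95% confidence interval -0.91 to -0.44; limma adjusted p = 0.0313), from a cerebellar effect of -0.71 ± 0.10 and a neocortical effect of -0.04 ± 0.05.

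Asf1a (chr10:53596757-53609225, plus strand), a histone chaperone, ranged from 30.6 to 32.9 TPM in control and from 18.4 to 23.9 TPM in LLC cerebellum, with a difference of -0.58 ± 0.10. Wnk3 (chrX:151198078-151320152, plus strand), a kinase that controls chloride cotransporters, ranged from 9.99 to 11.6 TPM in control and from 6.33 to 7.79 TPM in LLC cerebellum, with a difference of -0.53 ± 0.10. Bmpr2 (chr1:59763400-59879014, plus strand), the type II receptor for bone morphogenetic proteins, ranged from 36.4 to 44.9 TPM in control and from 26.1 to 30.4 TPM in LLC cerebellum, with a difference of -0.49 ± 0.09. In all 3 the cerebellar groups were separated and the neocortical groups overlapped, and limma adjusted p was 0.0465 for each. The remaining member was Nebl, which encodes nebulette, an actin-binding protein, with a difference of -0.47 ± 0.09.

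The falls in cerebellum were present without replicate 1. Leaving it out moved the difference to -1.77 for Plcxd3, -1.46 for Lcor and -1.20 for Fzd3, at limma adjusted p of 0.0193, 0.00812 and 0.00152, and to -0.67 for Slc7a11 and -0.63 for Erbb4 (0.0235 and 0.0121). With the replicate block limma adjusted p was 0.0512 for Plcxd3, Fzd3, Erbb4 and Bmpr2, 0.0523 for Asf1a, 0.0585 for Lcor, 0.0853 for Wnk3 and 0.0985 for Slc7a11. Among fits that left out a library these 8 genes were called in 5 to 8 of 16. Scaling removed most negative calls: median-ratio scaling and quantile normalization each kept 1 of all 14. With the length and GC trend removed the differences of Erbb4 (-0.42), Slc7a11 (-0.50), Asf1a (-0.51), Wnk3 (-0.36) and Bmpr2 (-0.23) were not called (limma adjusted p = 0.139, 0.105, 0.0769, 0.0986 and 0.381), while Plcxd3, Lcor and Fzd3 were. With a pseudocount of 0.1, however, Plcxd3 (-2.97), Lcor (-2.45) and Fzd3 (-1.64) were not called (limma adjusted p = 0.0648, 0.101 and 0.0580). Wnk3 and Bmpr2 also lost their calls there (limma adjusted p = 0.0511 and 0.0517), while Erbb4, Slc7a11 and Asf1a kept theirs.

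Transcript length and GC content moved with the difference over the whole transcriptome. Among the 13322 tested genes with an annotation, the median difference was 0.01 in the quintile with the shortest transcripts and -0.16 in the quintile with the longest, of at least 5351 bases. The cerebellar effect went from 0.02 to -0.13 over the same quintiles and the neocortical effect from 0.00 to 0.02. By GC content the median difference was -0.13 in the lowest quintile, at most 43.89% GC, and 0.00 in the highest. Both regional effects rose over these quintiles, from -0.16 to 0.05 in cerebellum and from -0.02 to 0.05 in neocortex. Spearman's rho of the difference across genes was -0.355 with length and 0.305 with GC. With GC, rho was 0.393 for the cerebellar effect and 0.175 for the neocortical one. The 14 negative genes had a median transcript length of 5941.5 bases and 41.5% GC, the 6 positive genes 2158.5 bases and 49.6%, and all annotated tested genes 3416 bases and 49.8%.

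The slope with length was steepest in cerebellar LLC replicate 1. Against the cerebellar control mean, the median of the longest quintile was -0.37 in that library, -0.10 in replicate 2 and -0.04 in replicates 3 and 4, and controls lay between -0.05 and 0.04. In neocortex the LLC libraries lay between 0.01 and 0.04. For GC the other LLC cerebella shared the direction: in the lowest quintile the 4 LLC cerebella had medians of -0.32, -0.13, -0.08 and -0.12, and the controls -0.02 to 0.03. The LLC neocortices shared it too, with medians of -0.061 to -0.001 in the lowest GC quintile and 0.011 to 0.082 in the highest. In the highest the LLC cerebella had 0.001 to 0.119. Without cerebellar LLC replicate 1 the median difference in the quintile with the longest transcripts was -0.09. The part of RNA quality or library preparation in these slopes was not tested, since the files hold no measure of either.

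**Figure D3:**
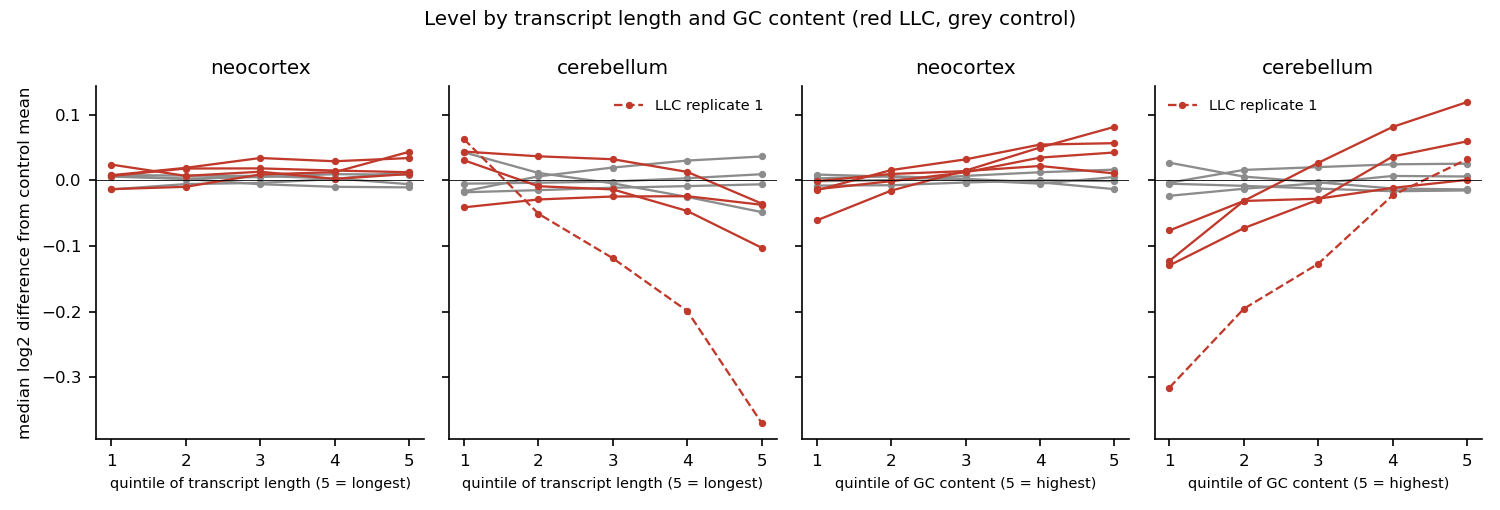
The vertical axis is the median over genes of the log2(TPM + 1) difference from the control mean of the region, and the horizontal axis is the quintile of transcript length (left pair) or of GC content (right pair), from shortest or lowest to longest or highest. Each line is 1 library, grey for control, red for LLC and dashed for cerebellar LLC replicate 1. That library reaches -0.37 in the quintile with the longest transcripts, where the neocortical lines stay near 0. By GC content the lines of the LLC neocortices end higher in the highest quintile than in the lowest, up to 0.08 in replicate 3.

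Leaving out cerebellar LLC replicate 1 brought in further genes, of which only Lgi2, Mapk11, Tubb3, Gadd45b and Tcap come under the naming rule, so the examples here were picked after their values were seen. Of the 103 negative differences, 81 were genes that fell in cerebellum with no call in neocortex, 15 rose in neocortex with no call in cerebellum, and 2 rose in neocortex and fell in cerebellum. Of the 24 positive ones, 15 rose in cerebellum with no call in neocortex and 6 fell in neocortex with no call in cerebellum. A further 2 fell in neocortex and rose in cerebellum. Long transcripts were frequent among the negative genes: their median length was 6419 bases, against 2632 for the positive genes, and 62 lay in the longest quintile of all annotated genes. Among them were Lnpep (-1.73), a membrane aminopeptidase, Kcnma1 (-0.61), the large-conductance calcium-activated potassium channel, Ube3a (-0.55), a ubiquitin ligase, and Clock (-0.35), a circadian transcription factor. Glial and vessel genes on the same side were Gpr17 (-0.91), a receptor of oligodendrocyte precursors, Nid1 (-0.59), a basement membrane protein, and Abcb1a (-0.40), the drug exporter of the blood-brain barrier. On the positive side was Npy (0.75), the precursor of neuropeptide Y. Removing the length and GC trend as well left 67 genes, 12 positive and 55 negative.

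**Figure D4:**
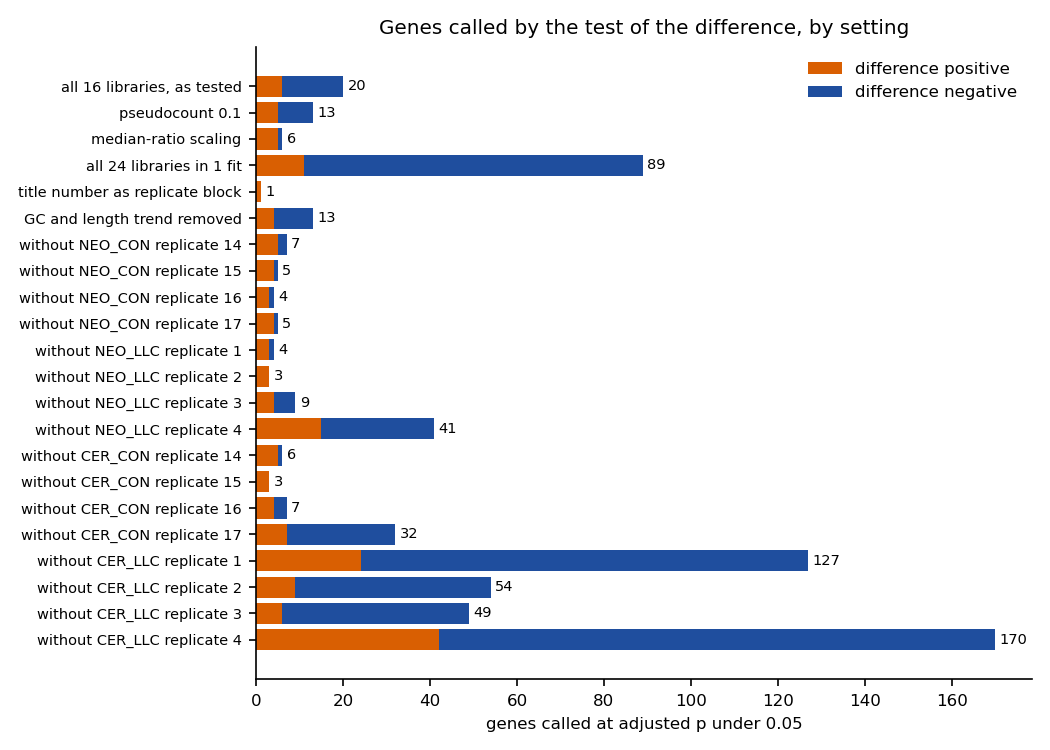
Bars give the number of genes whose tumour effect differed between the regions at an adjusted p under 0.05, split by direction, for the test of all 16 libraries (20 genes), 5 other settings and each fit without a single library. The count is 127 without cerebellar LLC replicate 1, 170 without cerebellar LLC replicate 4 and 1 with the title number as a replicate block.

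The blood and acute-phase response to the tumour was large in both regions and had no called difference. Lcn2, the siderophore-binding lipocalin, measured 0.0727 to 0.322 TPM in control and 5.59 to 8.90 TPM in LLC neocortex, and 0.178 to 0.515 TPM in control and 4.84 to 8.25 TPM in LLC cerebellum. Its groups were separated in both regions, with effects of 2.67 ± 0.13 and 2.60 ± 0.16, and the difference of -0.07 had a 95% confidence interval of -0.52 to 0.39. Lrg1, a secreted glycoprotein, had effects of 2.13 in neocortex and 2.56 in cerebellum, and its difference of 0.42 ± 0.15 did not pass (limma adjusted p = 0.288; interval 0.11 to 0.74).

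Intervals were wide for genes that varied among LLC mice, and narrowed where title numbers were paired. Hba-a1, an alpha-globin gene, measured 242 to 331 TPM in control and 760 to 3281 TPM in LLC neocortex, and 271 to 354 TPM in control and 925 to 3231 TPM in LLC cerebellum. LLC replicate 4 was lowest in both regions. The difference was 0.09 with an interval of -1.15 to 1.33, and that of the beta-globin gene Hbb-bs was -0.04 with an interval of -1.31 to 1.23. Vwf, the von Willebrand factor of endothelium, had a difference of -0.49 (interval -1.26 to 0.28), and S100a9, a calprotectin subunit of neutrophils, one of -0.69 (interval -2.29 to 0.91). These intervals come from the fit without a replicate block, which leaves any spread shared within a title number in the error. With the title number as a block they were -0.12 to 0.30 for Hba-a1, -0.29 to 0.21 for Hbb-bs, -0.74 to -0.24 for Vwf and -1.12 to -0.26 for S100a9. None of the 4 was called with the block either (limma adjusted p = 0.693, 0.890, 0.128 and 0.184).

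Gene lists showed which groups leaned to either side. Of 46 lists, 5 held a called gene, namely Notch, immediate early, reactive astrocyte, ATF4 and NRF2, each with 1. A list's lean has to be read against all tested genes, of which 66.2% had a negative difference. Counts of members that rose or fell likewise have to be read against all tested genes. Of those 6.08% rose and 3.28% fell in neocortex, and 1.36% and 1.52% in cerebellum.

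Vessel genes leaned to the negative side with no call among them. Of 21 endothelial genes 20 had a negative difference (median -0.24). Within neocortex 15 rose and 1 fell (median effect 0.57), and within cerebellum 7 rose and 1 fell (median effect 0.49). Over all tested genes 838 rose in neocortex (6.08%) and 187 in cerebellum (1.36%). Fewer rises in cerebellum were therefore not particular to vessel genes. Kdr, the main VEGF receptor, had effects of 1.09 in neocortex and 0.72 in cerebellum, Pecam1, an adhesion molecule, 0.94 and 0.65, and Tek, the angiopoietin receptor, 0.42 and 0.07. The mean over the list was 0.80, 0.78, 0.69 and 0.36 above controls in the 4 LLC neocortices and 0.70, 0.48, 0.38 and 0.14 in the 4 LLC cerebella, so the ranges overlapped between regions and replicate 4 was lowest in each. Within each of the 4 title numbers the cerebellar mean was below the neocortical one, which is a description with no test. All 12 mural cell genes had a negative difference (median -0.19), with 6 up in neocortex and 1 up in cerebellum. Of 14 basement membrane genes 12 were negative (median -0.15), with 8 up in neocortex and 4 in cerebellum. The medians stayed negative under median-ratio scaling (-0.18, -0.13 and -0.09) and quantile normalization (-0.16, -0.11 and -0.05). With the length and GC trend removed they were -0.27, -0.23 and -0.07, against -0.06 over all tested genes, and without cerebellar LLC replicate 1 they were -0.35, -0.27 and -0.17.

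Microglia genes leaned to the positive side. Of 17, 16 had a positive difference (median 0.14), with no call in the difference or in either region. Median effects were -0.20 in neocortex and -0.03 in cerebellum. Over the list the LLC neocortices had means of -0.32, -0.21, -0.42 and 0.13, and the LLC cerebella 0.17, -0.21, -0.24 and 0.04, so libraries of both regions covered much of the same range. Without cerebellar LLC replicate 1 the median difference was 0.06.

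Cholesterol synthesis, which in brain is carried out locally, had 17 of 24 genes that fell in neocortex and 6 that fell in cerebellum, with 0 up in either. The median effects were -0.38 and -0.30. The differences were positive for 18 of the 24 (median 0.17, or 0.10 without cerebellar LLC replicate 1) and 0 were called. Idi1, an isomerase of the pathway, had effects of -0.73 and -0.62, and Cyp51, a demethylase of lanosterol, -0.71 and -0.60. LLC replicate 4 had a mean of -0.17 in neocortex and LLC replicates 1 and 4 had means of -0.15 and -0.11 in cerebellum, against -0.39 to -0.52 in the other 5 LLC libraries.

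Genes of neuronal excitability had negative median differences, which were smaller in size without cerebellar LLC replicate 1. Of 23 potassium channel genes 20 had a negative difference (median -0.15), with median effects of 0.00 in neocortex and -0.18 in cerebellum, and of 15 sodium and calcium channel genes 13 did (median -0.14). Of 15 glutamatergic genes 13 were negative (median -0.23). The mean over the potassium channel list was -0.49, -0.25, -0.12 and -0.05 in the 4 LLC cerebella and between -0.02 and 0.04 in the LLC neocortices. Removing the length and GC trend moved the median difference of potassium channels to -0.10, of sodium and calcium channels to -0.04 and of glutamatergic genes to -0.13. Without cerebellar LLC replicate 1 the medians were -0.11, -0.02 and -0.12 in the same order, against -0.04 over all tested genes. The cerebellar neuron genes had a median difference of -0.19 with all libraries and 0.02 without cerebellar LLC replicate 1.

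**Figure D5:**
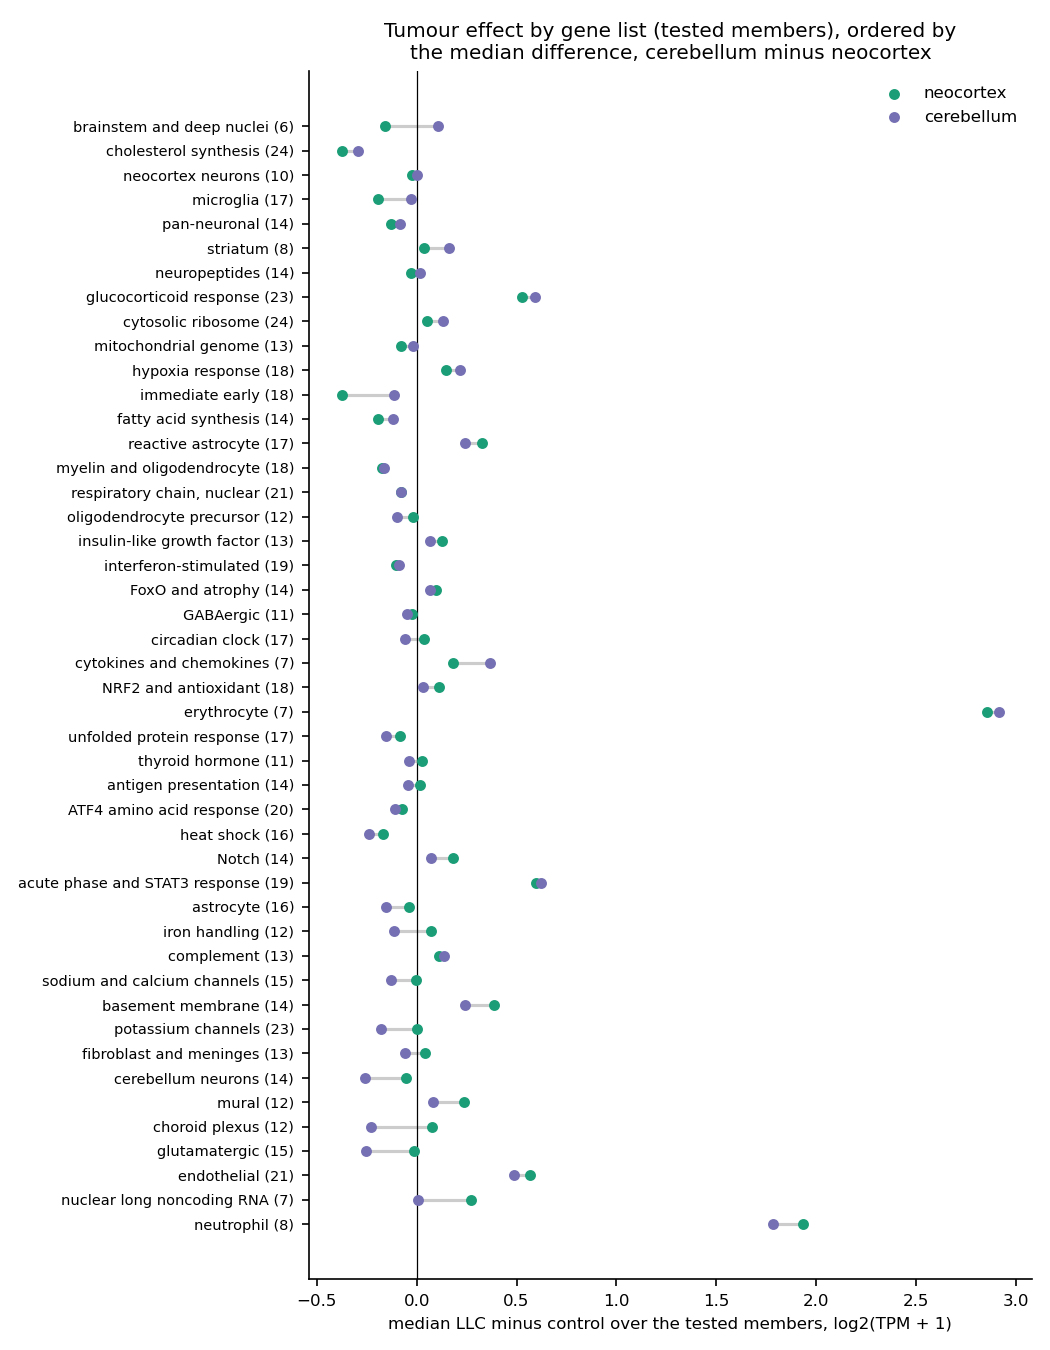
Each row is 1 of 46 gene lists with its number of tested members, ordered by the median of the members' differences, and the horizontal axis is the median LLC minus control effect in log2(TPM + 1). Green points are neocortex and purple points cerebellum, each a median of effects, so the gap between points need not equal the median difference; erythrocyte and neutrophil genes are high in both regions.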

How the data were processed

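Messenger RNA was sequenced from 3 brain regions, per the labels' protocols. TPM values of 24 libraries were deposited by the authors as a single table. Reads were placed on mm10, per the submitters' processing notes. How they were aligned and counted is not given in the sources used here. Depth is unknown, because TPM keeps no read number, and 1 abundant transcript lowers the values of the rest. The 16 libraries were fitted with limma 3.58.1 (lmFit, eBayes with a trend; R 4.3.3) on log2(TPM + 1), with 1 mean per group and 12 residual degrees of freedom, two-sided with Benjamini-Hochberg adjustment at 0.05; each region was also fitted alone. A pseudocount of 1 understates fold changes of low genes. Coordinates, length and GC content of the longest transcript came from GENCODE M21, matched by symbol for 96.66% of tested genes.

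Labels call the libraries biological replicates, so p-values measure the spread between them; they do not say whether a number marks an animal. Deviations from group means correlated between the regions at r = 0.117 to 0.495 for each of the 8 title numbers, each highest with its own number, which met the rule for pairing. The fit with the title number as a replicate block is therefore given beside the results, while values, standard errors, intervals and p-values come from the fit without it unless stated. The 20 calls thus come from a fit that ignores this pairing. With the block 1 gene was called, and with the random block 90 were. No 2 of the 120 library pairs were identical.

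Named genes were the 12 most positive and 12 most negative called genes, genes called without each library, called list members (at most 4 per list by p), the 5 positive genes with the smallest p that did not pass, and 6 blood and acute-phase genes; predicted genes were left out. The comparison, lists and rule were chosen with earlier results of these data known. Scripts were tested on simulated data. Alternatives covered pseudocount, filter, scaling, weights, replicate block, length and GC trend (splines with 4 degrees of freedom) and left-out libraries. Figures used Python 3.11.15 and matplotlib 3.10.9.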

Additional observations from a re-analysis of the deposited data

Results flagged for a closer look

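For 17 named genes the test itself, without a replicate block, showed a tumour effect that differed between the regions, cerebellum minus neocortex on the log2 scale. The positive values were 1.19 for Tnnc1, 1.09 for Hes5, 1.02 for Gda, 1.01 for Klf10 and 0.88 for Ier5. The negative values were -1.99 for Plcxd3, -1.74 for Lcor, -1.55 for Etnppl, -1.46 for Fzd3, -0.97 for Vim, -0.71 for Slc7a11, -0.67 for Erbb4, -0.62 for Lacc1, -0.58 for Cpeb2, -0.58 for Asf1a, -0.53 for Wnk3 and -0.49 for Bmpr2.

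Single libraries lay far from the other 3 of their group in 10 of 112 combinations of gene and group, by Dixon's ratio at its 95% level, which chance gives in about 1 of 20 groups. In LLC neocortex replicate 4 was apart for Hes5 (21.5 TPM), Etnppl (26.8 TPM) and Cpeb2 (36.6 TPM), each time on the side of the controls. In the same group replicate 3 was low for Plcxd3 (5.18 TPM) and replicate 2 high for Lcn2 (8.90 TPM). In LLC cerebellum replicate 1 was high for Tubb3 (505 TPM) and replicate 4 low for Hba-a1 (925 TPM). Among controls, neocortex replicate 15 was high for Gda (179 TPM), and cerebellum replicate 17 was high for Mapk11 (58.5 TPM) and replicate 16 low for Tcap (6.12 TPM).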

How the results depend on the processing

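The count of called differences, 20, moved with nearly every choice. It was 13 with a pseudocount of 0.1, 4 with a filter at 5 TPM, 6 with no filter, 8 with the filter in either region, 6 with median-ratio scaling, 6 with quantile normalization, 1990 with library weights, 89 with all 24 libraries, 48 with the description number as a replicate block, 1 with the title number as a replicate block, 90 with that number as a random block (chosen after seeing the data), 13 with the length and GC trend removed and 1 with that removal and the title block. Robust eBayes gave 19. Leaving out 1 library gave 3 to 170, with 32 to 170 for each LLC cerebellum, control cerebellum 17 and LLC neocortex 4 and 3 to 9 for each of the other 10, and leaving out a title number in both regions gave 1 to 159. Without cerebellar LLC 1 and neocortical LLC 4 it was 307, and 67 without the former and the trend (chosen after seeing the data). The cause was not tested.

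The neocortical count of 1290 became 237 with no filter, 4292 with weights, 710 with the description block and 200 to 3781 without 1 library. The cerebellar count of 397 became 10, 5763, 767 and 7 to 1510, and 623 with median-ratio scaling, 858 with quantile normalization and 138 with the trend removed. No called gene that is named changed direction under any alternative run. The description number pairs LLC and control libraries by number alone. TPM gives no depth, so precision rests on 4 libraries per group.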

Other observations

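In 11 of the 20 called genes the gap between the regions was narrower in LLC mice than in controls, against 59.3% of all tested genes; the control libraries enter both the gap and the difference, so no test was made. For Hes5 the gap, cerebellum minus neocortex on the log2 scale, was -3.02 in controls and -1.93 in LLC mice, for Klf10 -2.05 and -1.04, for Ier5 -2.01 and -1.13, for Vim 2.31 and 1.34, and for Etnppl 2.33 and 0.77. For Plcxd3 it opened, from 0.09 to -1.90, and likewise for Lcor, from 0.24 to -1.49, and Fzd3, from -0.81 to -2.26.

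Choroid plexus genes had no called difference. Ttr, the transthyretin of choroid plexus, measured 265 to 1774 TPM in control and 625 to 2261 TPM in LLC neocortex, and 4268 to 5144 TPM in control and 4155 to 7979 TPM in LLC cerebellum. All 12 genes of that list had a negative difference, with a median of -0.22 (-0.11 without cerebellar LLC replicate 1), and 0 were called. Gpx3, a secreted glutathione peroxidase, had a difference of 1.83 ± 0.49 and A2m, a protease inhibitor of plasma, one of -1.07 ± 0.42, and neither passed; both were picked after their values were seen.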
